A study of Mus musculus with 16 samples.

Results

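Fat from the thigh (tAT, 4 libraries, labelled thigh adipose) was compared with epididymal white fat (eWAT, 4 libraries), so that 8 of the 16 RNA-seq libraries of the series were used. The mice of both groups were male C57BL66/J animals (the strain as the series spells it) made obese with a high fat diet. The genes compared were those with at least 1 FPKM in at least 4 of the 8 libraries, 14225 of the 46386 entries of the expression table. FPKM counts fragments per length of the gene and per size of the library. The series title asks about a depot of the mouse that is beige without an inducing treatment, and eWAT is its visceral white reference here. Neither ages nor cage temperature are stated in the labels. Nor do they tell whether 1 mouse gave 1 library, so each p-value reflects only how far the libraries of a depot lie apart, and part of that may be technical. In whole tissue a lower level can mean fewer cells of a type or less RNA in each cell, and these cannot be told apart.

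Brown and beige adipocytes burn fatty acids in their mitochondria, and uncoupling protein 1 (Ucp1) lets protons back across the inner membrane so that the energy leaves as heat. White adipocytes store triglyceride and secrete hormones such as leptin. Epididymal fat hangs in the abdominal cavity and carries a mesothelial covering, and in obese mice it is known for macrophages that gather around dying adipocytes, whereas fat of the hind limb lies next to skeletal muscle and has no such covering.

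The FPKM values of a library summed to 896524 to 1074123, with 13644 to 14307 genes at 1 FPKM or more. Both depots carried adipocyte transcripts at high level, with Adipoq (adiponectin) at 3577 to 4006 FPKM in eWAT and 2053 to 2326 FPKM in tAT. Skeletal muscle transcripts set 3 thigh libraries apart. The 32 muscle genes that were found summed to 107 to 191 FPKM in eWAT, to 32873, 32988 and 20901 FPKM in tAT 1, 2 and 4, and to 383 FPKM in tAT 3, where they were 0.0356% of all FPKM against 2.18 to 3.68% in the other thigh libraries. Differences are therefore also given for tAT 3 alone, as its distance from the eWAT mean. In eWAT 3 the epididymal gene Crisp1 stood out, and the epididymis and testis list summed to 427 FPKM there against 43.7 to 123 FPKM in the other eWAT libraries and 15.3 to 27.1 FPKM in tAT. The smooth muscle genes Cnn1 and Myh11 were also highest in eWAT 3, at 19.01 and 23 FPKM against at most 0.561 and 5.17 FPKM in the other eWAT libraries. Sperm transcripts were highest in eWAT 1, with Prm1 at 24.5 FPKM against 1.10, 2.08 and 1.35 FPKM in eWAT 2 to 4. Some abundant genes were listed at 0 in single libraries (Gapdh in tAT 1, Scd1 in eWAT 3, mt-Co1 in tAT 3 and 4), and such values are not read as absence.

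Of the 14225 genes, 2412 (17.0%) were higher and 4927 (34.6%) lower in tAT at a Benjamini-Hochberg adjusted p under 0.05 with limma on log2(FPKM + 1). All differences below are on that scale, tAT minus eWAT, with their standard error (SE), and the median over all genes was -0.10. A rescaling by median-of-ratios size factors moved that median by 0.13 to 0.03 and the calls to 3586 higher and 3837 lower, so the excess of lower calls was smaller with that scaling. In all 51.6% of the genes were called, so the counts of a list mean little without the shares of all genes. Calls with a difference of at least 1 on the log2 scale numbered 466 higher (3.28%) and 1441 lower (10.1%). Of the calls, 119 higher and 294 lower genes stayed under 1 FPKM in every library of one depot, and such genes passed the filter only through the depot in which they are high. tAT 3 alone lay above every eWAT library in 1924 (79.8%) of the higher genes and below every eWAT library in 4590 (93.2%) of the lower ones. It differed in the other direction in 44 and 11. Because tAT 3 is among the thigh libraries of the limma fit, its agreement with the calls is partly built in. A call for tAT 3 means at least 1 on the log2 scale from the eWAT mean and outside the range of eWAT. By that rule it was higher in 570 genes (4.01%) and lower in 1532 (10.8%). Both limma and the tAT 3 rule called 464 genes higher (3.26%) and 1435 lower (10.1%). All 4 thigh libraries lay above all eWAT libraries in 1955 genes (13.7%) and below them in 4600 (32.3%).

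Genes of heat production that muscle hardly expresses were higher in thigh fat, and most of them by more in tAT 3 than in the muscle-rich thigh libraries. Ucp1 (mm10 chr8:83290352-83298452, plus strand) was 0.0769, 0.147, 0.0231 and 0.0804 FPKM in eWAT 1 to 4 and 114, 152, 461 and 354 FPKM in tAT 1 to 4. Every thigh library was above 100 FPKM and every eWAT library under 1 FPKM, a difference of 7.74 (SE 0.41, adjusted p = 9.0e-06), with 8.74 for tAT 3. Cidea, a lipid droplet protein of brown fat, was 2.93, 2.18, 3.27 and 2.62 FPKM in eWAT 1 to 4 and 92.7, 86.6, 343 and 203 FPKM in tAT 1 to 4. It was highest in tAT 3 and no library overlapped between the depots, with a difference of 5.38 (SE 0.42, adjusted p = 4.4e-05) and 6.53 for tAT 3. Of the 20 listed genes, 16 were tested (4 of them under 1 FPKM in all eWAT libraries), 13 were higher and none was lower, with a median difference of 1.47. tAT 3 was higher by its rule in 12 and its median was 1.84. Otop1, a proton channel, differed by 3.33 (SE 0.23, adjusted p = 1.2e-05) and by 3.72 in tAT 3. Dio2, which makes active thyroid hormone, was 0.382, 1.58, 0.171 and 0.173 FPKM in eWAT 1 to 4 and 8.93, 4.17, 5.17 and 21.8 FPKM in tAT 1 to 4, and it was highest in tAT 4 and lowest in tAT 2. The lowest thigh library, tAT 2, was above the highest eWAT library, and the difference was 2.63 (SE 0.48, adjusted p = 0.0022), with 2.05 for tAT 3. The brown fat regulators Prdm16 and Ebf2 were lower in level but higher in tAT in all 4 libraries. Prdm16 was 0.882, 1.49, 1.75 and 1.73 FPKM in eWAT 1 to 4 and 5.19, 4.68, 4.41 and 6.21 FPKM in tAT 1 to 4. Every tAT value exceeded every eWAT value, tAT 4 being the highest, and the difference was 1.32 (SE 0.15, adjusted p = 0.00014), with 1.15 for tAT 3. Ebf2 was 3.08, 3.44, 4.43 and 2.62 FPKM in eWAT 1 to 4 and 12.04, 9.65, 10.3 and 10.4 FPKM in tAT 1 to 4. Highest in tAT 1 and without overlap, the levels differed by 1.41 (SE 0.14, adjusted p = 6.2e-05), and tAT 3 by 1.38. Nrg4, a factor secreted by brown adipocytes, differed by 1.41 (SE 0.16, adjusted p = 0.00014) and by 1.61 in tAT 3, and Clstn3 by 1.35 (SE 0.20, adjusted p = 0.00055) and by 1.92.

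Not every gene of the list followed. Adrb3, the β3-adrenergic receptor through which noradrenaline turns on heat production in rodents, was 118, 152, 176 and 125 FPKM in eWAT 1 to 4 and 139.8, 104, 167 and 123 FPKM in tAT 1 to 4. The depots overlapped, with a difference of -0.10 (SE 0.17, adjusted p = 0.65) and 0.24 for tAT 3. The related receptor Adrb1 was far lower in level but differed, at 1.09, 1.72, 1.93 and 1.01 FPKM in eWAT 1 to 4 and 6.02, 3.45, 8.24 and 6.26 FPKM in tAT 1 to 4. It was highest in tAT 3, did not overlap between depots and differed by 1.49 (SE 0.22, adjusted p = 0.00055), and by 1.94 in tAT 3. The potassium channel gene Kcnk3 (difference 0.16, adjusted p = 0.31, tAT 3 0.49) and the regulator Zfp516 (difference -0.09, adjusted p = 0.65, tAT 3 -0.43) did not pass. Elovl3, a fatty acid elongase strongly induced in brown fat by cold, stayed near the filter in both depots and was not tested. Its levels were 1.09, 0.685, 0.0775 and 0.868 FPKM in eWAT 1 to 4 and 0.369, 1.11, 0.870 and 0.790 FPKM in tAT 1 to 4. At a filter of 5 FPKM only 7 thermogenic genes were left among the higher ones.

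**Figure D1:**
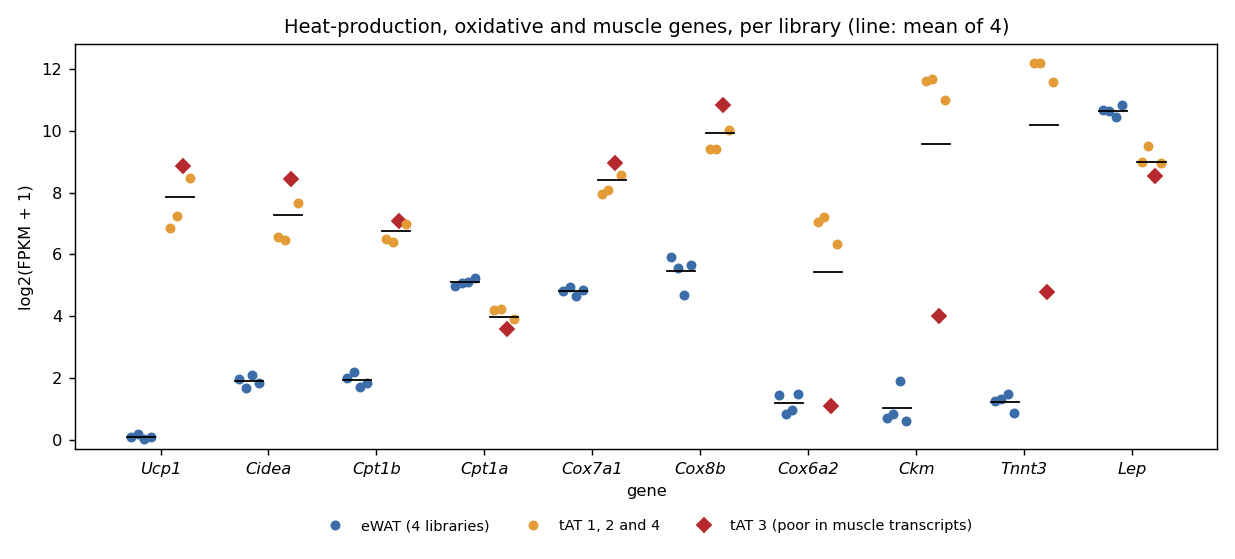
Levels of 10 genes in the 8 libraries on log2(FPKM + 1); blue circles are eWAT, orange circles tAT 1, 2 and 4, the red diamond is tAT 3, and the line is the mean of 4 libraries. Ucp1, Cidea, Cpt1b, Cox7a1 and Cox8b were highest in tAT 3, while Cox6a2 in tAT 3 lay within the eWAT range and Ckm and Tnnt3 lay far under the other thigh libraries.

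Oxidative genes that brown fat shares with muscle were higher in thigh fat. Of the 18 listed genes 17 were tested, and 4 of these were under 1 FPKM in all eWAT libraries and passed the filter only through tAT. All 17 were higher, with a median of 1.86, and tAT 3 was higher by its rule in 14, all but Cox6a2, Perm1 and Esrra. Cpt1b (mm10 chr15:89416405-89425863, minus strand), the muscle and brown fat form of the enzyme that admits fatty acids to mitochondria, was 3.06, 3.62, 2.26 and 2.58 FPKM in eWAT 1 to 4 and 89.8, 84.2, 133 and 126 FPKM in tAT 1 to 4. The highest value was that of tAT 3 and no library overlapped, with a difference of 4.80 (SE 0.18, adjusted p = 4.3e-07) and 5.12 for tAT 3. Fabp3, a fatty acid carrier of muscle and brown fat, differed by 5.57 (SE 0.28, adjusted p = 2.6e-06) and by 6.14 in tAT 3. Its reads can be shared with the near copy Fabp3-ps1, which differed by 4.22 (SE 0.27, adjusted p = 9.3e-06) and by 4.85 in tAT 3, so the level of Fabp3 is uncertain. Cox8b (mm10 chr7:140898945-140900446, minus strand) and Cox7a1 (mm10 chr7:30184144-30186078, plus strand) are subunits of cytochrome c oxidase made in muscle and brown fat. Cox8b was 59.2, 46.6, 24.8 and 49.2 FPKM in eWAT 1 to 4 and 683, 677, 1802 and 1044 FPKM in tAT 1 to 4. No eWAT library reached the level of tAT 2, the lowest thigh library, and the difference was 4.46 (SE 0.36, adjusted p = 3.3e-05), with 5.36 for tAT 3. Cox7a1 was 27.1, 30.1, 24.5 and 27.8 FPKM in eWAT 1 to 4 and 246, 272, 496 and 377 FPKM in tAT 1 to 4. The thigh libraries, led by tAT 3, were all above eWAT, with a difference of 3.57 (SE 0.20, adjusted p = 5.0e-06) and 4.13 for tAT 3. Both were highest in tAT 3.

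A further subunit of that kind, Cox6a2, behaved otherwise. It was 1.73, 0.790, 0.969 and 1.81 FPKM in eWAT 1 to 4 and 132, 146, 1.16 and 79.6 FPKM in tAT 1 to 4, so that tAT 3 lay within the eWAT range and the call (SE 1.41, adjusted p = 0.044) with a difference of 4.23 rested on tAT 1, 2 and 4, with -0.08 for tAT 3. Perm1, a regulator of muscle oxidative genes, was 0.368, 0.257, 0.233 and 0.260 FPKM in eWAT 1 to 4 and 7.94, 7.96, 1.28 and 5.77 FPKM in tAT 1 to 4 and stood between, with 0.83 for tAT 3 against 2.21 (SE 0.40, adjusted p = 0.0018) over all. The coactivator Ppargc1a, which drives the making of mitochondria, was low but separated, at 0.393, 0.443, 0.901 and 0.435 FPKM in eWAT 1 to 4 and 5.13, 4.12, 3.51 and 5.79 FPKM in tAT 1 to 4. Thigh levels were above eWAT in each library and lowest in tAT 3, a difference of 1.86 (SE 0.16, adjusted p = 3.5e-05) with 1.56 for tAT 3. The nuclear receptor genes Esrrg and Esrra differed by 1.22 (SE 0.12, adjusted p = 7.5e-05) and 0.54 (SE 0.13, adjusted p = 0.0068), with 1.28 and 0.89 for tAT 3. Pdk4, which turns off pyruvate entry into the citric acid cycle, differed by 2.65 (SE 0.24, adjusted p = 4.4e-05) and by 2.82 in tAT 3, and the droplet protein Plin5 by 1.86 (SE 0.24, adjusted p = 0.00027) and by 2.47.

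The depots also used different members of isoform pairs, which does not depend on how a library was scaled. The 6 pairs were chosen after the gene values were seen, so their shares are a description with no test. Cpt1b made up 9.10, 9.93, 6.31 and 6.52% in eWAT 1 to 4 and 83.8, 82.5, 92.2 and 89.9% in tAT 1 to 4 of the FPKM of Cpt1b and its liver form Cpt1a. The means were 7.96 ± 1.82% (SD, n = 4) in eWAT and 87.1 ± 4.70% (SD, n = 4) in tAT, so the main form was Cpt1a in eWAT and Cpt1b in tAT. Cpt1a itself (mm10 chr19:3322334-3385733, plus strand) was 30.6, 32.9, 33.6 and 36.98 FPKM in eWAT 1 to 4 and 17.4, 17.9, 11.2 and 14.1 FPKM in tAT 1 to 4 and fell by 1.12 (SE 0.14, adjusted p = 0.00025), lowest in tAT 3, at -1.50. Cox7a1 was 10.8 ± 0.990% (SD, n = 4) in eWAT and 59.9 ± 2.75% (SD, n = 4) in tAT of the FPKM of Cox7a1 and Cox7a2, the form of most other tissues. For Cox8b and Cox8a the share of Cox8b was 3.61 ± 0.763% (SD, n = 4) in eWAT and 50.1 ± 3.65% (SD, n = 4) in tAT. In these pairs tAT 3 gave 59.1% for Cox7a1 and 54.1% for Cox8b, within or above the other thigh libraries. Acacb, the acetyl-CoA carboxylase at mitochondria whose product holds back fatty acid entry, was 26.9, 26.2, 19.5 and 21.5% in eWAT 1 to 4 and 39.8, 29.7, 53.04 and 36.6% in tAT 1 to 4 of the FPKM of Acacb and Acaca.

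In the other pairs tAT 3 was as low as eWAT. The share of Cox6a2 in Cox6a2 and Cox6a1 was 0.165, 0.0881, 0.129 and 0.201% in eWAT 1 to 4 and 16.8, 19.8, 0.0845 and 8.81% in tAT 1 to 4, so that tAT 3 was just under the lowest eWAT library. Pfkm, the muscle phosphofructokinase, was 21.2, 23.3, 24.97 and 20.6% in eWAT 1 to 4 and 88.2, 85.99, 21.4 and 79.05% in tAT 1 to 4 of the FPKM of Pfkm and Pfkl, again with tAT 3 in the eWAT range.

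**Figure D2:**
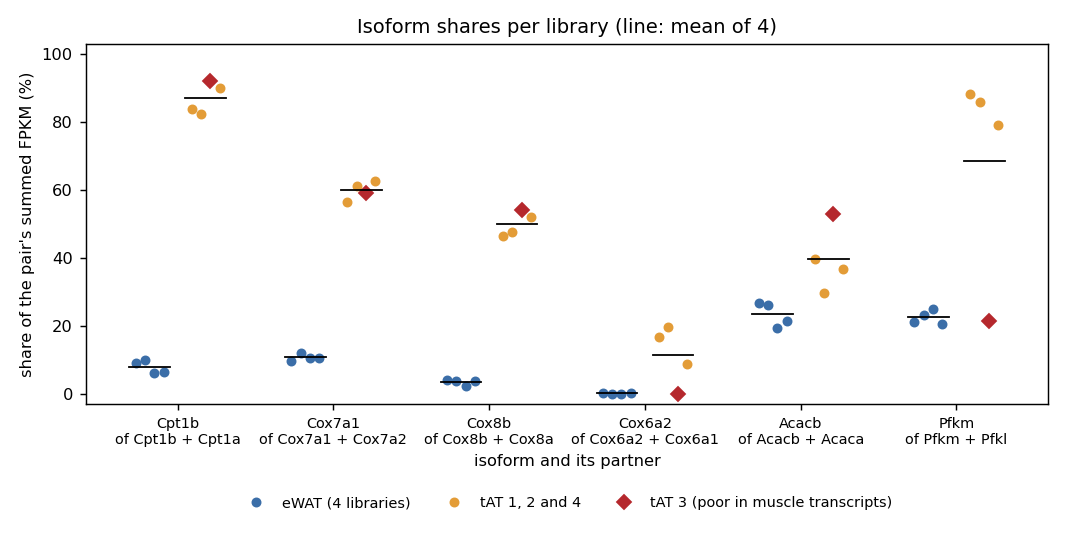
Share of the first gene in the summed FPKM of 6 isoform pairs, in percent, for each library; blue circles are eWAT, orange circles tAT 1, 2 and 4, the red diamond is tAT 3, and the line is the mean of 4 libraries. tAT 3 lies with the other thigh libraries for Cpt1b, Cox7a1 and Cox8b, above them for Acacb, and with eWAT for Cox6a2 and Pfkm.

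Mitochondrial enzymes of fuel oxidation were higher in thigh fat, the citric acid cycle most evenly, whereas many small subunits of the respiratory chain and mitochondrial ribosomal proteins were not. All 18 citric acid cycle and pyruvate entry enzymes were higher, with a median of 0.93. tAT 3 was above every eWAT library for each and called in 16, with a median of 1.24. Cs (citrate synthase) was 121, 137, 150.1 and 145 FPKM in eWAT 1 to 4 and 289.8, 273, 393 and 345 FPKM in tAT 1 to 4. The lowest thigh library, tAT 2, was above the highest eWAT library, and the difference was 1.22 (SE 0.14, adjusted p = 0.00012), with 1.51 for tAT 3. Sucla2, the ADP-forming succinyl-CoA ligase subunit, differed by 1.34 (SE 0.18, adjusted p = 0.00033) and by 1.83 in tAT 3. The highest level of both enzymes was in tAT 3.

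Of 20 fatty acid oxidation enzymes 12 were higher and Cpt1a alone was lower, with a median of 0.61, and tAT 3 was called higher in 14. Acadvl, which starts the breakdown of long chains, was 105, 102.7, 95.4 and 92.3 FPKM in eWAT 1 to 4 and 198, 184, 438 and 289 FPKM in tAT 1 to 4. Every tAT value exceeded every eWAT value, tAT 3 being the highest, and the difference was 1.39 (SE 0.24, adjusted p = 0.0013), with 2.14 for tAT 3. Acaa2, a thiolase, was 145, 120.0, 122 and 141 FPKM in eWAT 1 to 4 and 212, 213, 535 and 349 FPKM in tAT 1 to 4. Highest in tAT 3 and without overlap, the levels differed by 1.20 (SE 0.27, adjusted p = 0.0055), and tAT 3 by 2.01. Acadl differed by 1.21 (SE 0.21, adjusted p = 0.0011) and by 1.82 in tAT 3. In a fit with tAT 3 as the only thigh library 17 of the 20 were higher.

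Transcripts made inside mitochondria were higher as well, in 12 of 13 genes with a median of 1.21. mt-Cytb (cytochrome b) was 5044, 5982, 6119 and 5869.8 FPKM in eWAT 1 to 4 and 11357, 11497, 19269 and 14464 FPKM in tAT 1 to 4. It was highest in tAT 3, did not overlap between depots and differed by 1.27 (SE 0.19, adjusted p = 0.00056), and by 1.75 in tAT 3. By FPKM, a measure per length of the gene, mt-Atp8 was the highest of the list, at 28158 to 38233 FPKM in eWAT and 80684 to 118305 FPKM in tAT. It differed by 1.51 (SE 0.19, adjusted p = 0.00021), with 1.82 for tAT 3. The gene left, mt-Co1, was listed at 0 in tAT 3 and 4 and at 16057 and 16909 FPKM in tAT 1 and 2, against 7978 to 9727 FPKM in eWAT, so no difference is given for it.

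Nuclear-encoded subunits of the respiratory chain gave a mixed picture that turned on tAT 3. Of 13 complex II and III genes 7 were higher, with a median of 0.63, and tAT 3 was called higher in 7. Uqcrc2 was 159, 152, 167 and 139.7 FPKM in eWAT 1 to 4 and 287, 258, 489 and 383 FPKM in tAT 1 to 4. No eWAT library reached the level of tAT 2, the lowest thigh library, and the difference was 1.15 (SE 0.19, adjusted p = 0.00093), with 1.66 for tAT 3. Of 36 complex I genes 8 were higher, a share near the 17.0% of all genes. None was lower, against 34.6% of all genes, and the median was 0.20. The core subunit Ndufs1 was 44.3, 52.6, 61.6 and 52.5 FPKM in eWAT 1 to 4 and 112, 106, 146 and 127 FPKM in tAT 1 to 4. The thigh libraries, led by tAT 3, were all above eWAT, with a difference of 1.20 (SE 0.13, adjusted p = 0.00012) and 1.46 for tAT 3, while the small subunit Ndufa7 was 419, 334, 329 and 352 FPKM in eWAT 1 to 4 and 255, 226, 369 and 257 FPKM in tAT 1 to 4. The depots overlapped, with a difference of -0.39 (SE 0.16, adjusted p = 0.068) and 0.05 for tAT 3. tAT 3 was above the eWAT mean in all 36 complex I genes. With tAT 3 left out 6 complex I genes were lower, with tAT 3 as the only thigh library 20 were higher, and quantile normalization gave 27 higher. For the complex IV subunits of all tissues (1 higher and 1 lower of 11) the median of 0.12 became -0.05 without tAT 3, and for the ATP synthase (3 higher of 15) the median of 0.03 became -0.05. For tAT 3 alone these medians were 0.65 and 0.58, and with quantile normalization 0.54 and 0.39. Mitochondrial ribosomal proteins were higher in 1 and lower in 6 of 30, with a median of -0.13 that was 0.02 with median-of-ratios scaling, 0.13 with quantile normalization and 0.30 for tAT 3. Without tAT 3, 14 of the 30 were lower, so no direction is given for them. Of 18 enzymes of branched-chain amino acid breakdown 9 were higher and none lower, with a median of 0.46. Aldh6a1 differed by 0.79 (SE 0.14, adjusted p = 0.0016) and by 1.07 in tAT 3. With quantile normalization 17 of these 18 were higher.

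**Figure D3:**
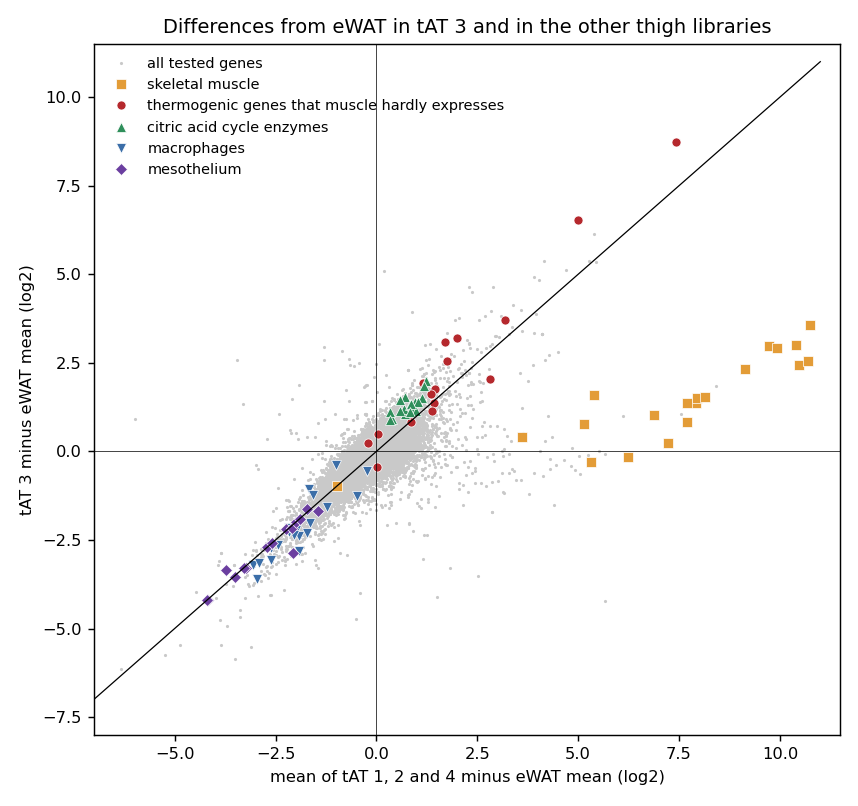
Difference from the eWAT mean on log2(FPKM + 1) for each tested gene, with the mean of tAT 1, 2 and 4 on the x axis and tAT 3 on the y axis; grey dots are all tested genes, coloured dots are members of 5 lists, and the diagonal marks equal differences. Muscle genes lie far under the diagonal, most thermogenic genes and the citric acid cycle enzymes near or above it in the higher quadrant, and macrophage and mesothelial genes in the lower quadrant.

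Skeletal muscle genes had the largest differences of all and were carried by tAT 1, 2 and 4. Of 33 listed genes 32 were found, 20 were tested, 18 were higher and 1 was lower, with a median of 6.19 against 1.44 for tAT 3. Of the 20, 4 were under 1 FPKM in all eWAT libraries and 1 in all thigh libraries, so these passed the filter only through the other depot. Ckm (muscle creatine kinase) was 0.641, 0.788, 2.78 and 0.542 FPKM in eWAT 1 to 4 and 3128, 3218, 15.2 and 2031 FPKM in tAT 1 to 4. Thigh levels were above eWAT in each library and lowest in tAT 3, a difference of 8.54 (SE 1.81, adjusted p = 0.0082) with 3.0 for tAT 3. Tnnt3 (fast troponin T) was 1.42, 1.53, 1.79 and 0.817 FPKM in eWAT 1 to 4 and 4612, 4675, 26.9 and 3014 FPKM in tAT 1 to 4. The lowest thigh library, tAT 3, was above the highest eWAT library, and the difference was 8.94 (SE 1.74, adjusted p = 0.0058), with 3.56 for tAT 3. For both, tAT 3 lay above eWAT yet far below the other thigh libraries. Muscle enzymes of glycolysis moved with them. Eno3 was 6.24, 7.02, 6.41 and 7.75 FPKM in eWAT 1 to 4 and 1119.8, 998, 14.9 and 688 FPKM in tAT 1 to 4 and Pgam2 was 1.46, 0.616, 0.740 and 0.306 FPKM in eWAT 1 to 4 and 362, 373, 2.60 and 245 FPKM in tAT 1 to 4, with 1.02 and 1.05 for tAT 3 against 5.41 (SE 1.42, adjusted p = 0.019) and 5.92 (SE 1.58, adjusted p = 0.020) over all. Of 17 glycolysis genes 9 were higher and 3 lower, but 4 were higher with tAT 3 as the only thigh library, 4 without tAT 2 and 5 without tAT 1 or without tAT 4. Aldoa and Pkm were higher in tAT 1, 2 and 4 only, with -0.01 and 0.13 for tAT 3. Hk2, the hexokinase of insulin-responsive tissues, was 43.02, 42.8, 37.3 and 34.2 FPKM in eWAT 1 to 4 and 58.9, 55.7, 74.2 and 59.4 FPKM in tAT 1 to 4 and was higher in tAT 3 too. Every tAT value exceeded every eWAT value, tAT 3 being the highest, and the difference was 0.64 (SE 0.12, adjusted p = 0.0019), with 0.91 for tAT 3.

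White-selective genes were lower in thigh fat with 1 exception. Of 15 listed genes 14 were tested, 13 were lower and 1 higher, with a median of -1.52 and -1.56 for tAT 3, which was called lower in 11. Lep (leptin, through which fat signals its stores to the brain) was 1619, 1588, 1403 and 1796 FPKM in eWAT 1 to 4 and 505, 726, 368 and 492 FPKM in tAT 1 to 4. The highest thigh library, tAT 2, was below the lowest eWAT library, and the difference was -1.65 (SE 0.19, adjusted p = 0.00015), with -2.12 for tAT 3. Wfdc21 was 426, 313, 172 and 362 FPKM in eWAT 1 to 4 and 25.7, 44.4, 25.2 and 25.7 FPKM in tAT 1 to 4. Every tAT value was under every eWAT value, tAT 3 being the lowest, and the difference was -3.32 (SE 0.28, adjusted p = 3.5e-05), with -3.53 for tAT 3. Mest, an imprinted gene that marks expanding adipocytes, was 511, 555, 538 and 694 FPKM in eWAT 1 to 4 and 166, 307, 67.9 and 152 FPKM in tAT 1 to 4. Lowest in tAT 3 and without overlap, the levels differed by -1.90 (SE 0.38, adjusted p = 0.0032), and tAT 3 by -3.05. Sfrp5, a secreted Wnt antagonist, differed by -2.47 (SE 0.24, adjusted p = 5.5e-05) and by -2.99 in tAT 3. Psat1, of serine synthesis, and the amino acid carrier Slc7a10 differed by -1.40 (SE 0.09, adjusted p = 1.1e-05) and -1.03 (SE 0.09, adjusted p = 4.4e-05), with -1.49 and -1.01 for tAT 3. The exception was Nnat (neuronatin, mm10 chr2:157560078-157562522, plus strand), at 1142, 1397, 1349 and 1052 FPKM in eWAT 1 to 4 and 2103, 1660.1, 2382 and 2003 FPKM in tAT 1 to 4. Highest in tAT 3 and without overlap, the levels differed by 0.72 (SE 0.15, adjusted p = 0.0037), and tAT 3 by 0.96.

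Among secreted factors 11 of the 16 tested were lower and 3 higher, with a median of -0.88. Retn (resistin) was 1415, 1577, 1833 and 1342 FPKM in eWAT 1 to 4 and 699.8, 645, 1173 and 771 FPKM in tAT 1 to 4, and its difference of -0.94 (SE 0.20, adjusted p = 0.0035) shrank to -0.38 in tAT 3. Rbp4, the carrier of retinol in blood, differed by -1.99 (SE 0.17, adjusted p = 3.6e-05) and by -1.54 in tAT 3, and Metrnl by -2.26 (SE 0.22, adjusted p = 5.7e-05) and by -2.22. The higher ones were Nrg4, Nampt and Vegfa. Nampt, an enzyme of NAD synthesis, differed by 1.08 (SE 0.13, adjusted p = 0.00017) and by 1.15 in tAT 3, and the vessel growth factor Vegfa by 0.81 (SE 0.22, adjusted p = 0.013) and by 0.80. With tAT 3 as the only thigh library 7 factors were lower and 2 higher.

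Of 18 general adipocyte genes 5 were higher and 5 lower, beside 17.0% and 34.6% of all genes. Their median was 0.16 and their mean -0.04. Adiponectin was lower. It was lowest in tAT 4, did not overlap between depots and differed by -0.82 (SE 0.11, adjusted p = 0.00036), and by -0.70 in tAT 3, as were Cidec, Dgat2, Lpl and Ghr at -1.03, -0.80, -0.86 and -0.85, and in tAT 3 at -1.01, -0.63, -0.65 and -1.04. Slc2a4, the insulin-responsive glucose transporter GLUT4, was 52.7, 62.9, 78.8 and 56.4 FPKM in eWAT 1 to 4 and 132, 119.9, 124 and 125 FPKM in tAT 1 to 4. It was highest in tAT 1, did not overlap between depots and differed by 1.01 (SE 0.13, adjusted p = 0.00022), and by 0.99 in tAT 3. GLUT4 is also a muscle gene, and the part of muscle RNA in its difference was not tested. Fabp4, Pparg, Cebpa and Lipe did not pass, with differences of -0.52, 0.20, 0.17 and -0.01 and of -0.01, 0.48, 0.37 and 0.27 in tAT 3. The count of higher genes was 2 without eWAT 4, 3 without eWAT 1, without eWAT 2 or without tAT 4, and 8 with median-of-ratios scaling. Among lipolysis regulators 5 of 16 were higher and 3 lower, beside 17.0% and 34.6% of all genes. Pnpla2, the first lipase of triglyceride, was 1023, 1085, 1023 and 1033 FPKM in eWAT 1 to 4 and 1296, 1179, 2009 and 1534 FPKM in tAT 1 to 4. No eWAT library reached the level of tAT 2, the lowest thigh library, and the difference was 0.50 (SE 0.17, adjusted p = 0.030), with 0.95 for tAT 3. Npr3, which clears natriuretic peptides, was lower, with a difference of -0.83 (SE 0.22, adjusted p = 0.013) and -1.42 for tAT 3. Leaving out any 1 eWAT library, or tAT 4, left 3 regulators higher.

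Genes of lipid synthesis differed member by member. Of 19 lipogenesis genes 6 were higher and 3 lower, beside 17.0% and 34.6% of all genes. Acacb was 8.10, 9.82, 12.2 and 7.998 FPKM in eWAT 1 to 4 and 43.2, 43.96, 84.96 and 65.8 FPKM in tAT 1 to 4. The thigh libraries, led by tAT 3, were all above eWAT, with a difference of 2.48 (SE 0.23, adjusted p = 4.4e-05) and 3.05 for tAT 3. The regulator Mlxipl (ChREBP), which senses glucose, was 22.1, 30.5, 27.03 and 18.1 FPKM in eWAT 1 to 4 and 70.2, 60.7, 74.6 and 76.96 FPKM in tAT 1 to 4. Thigh levels were above eWAT in each library and lowest in tAT 2, a difference of 1.51 (SE 0.16, adjusted p = 8.1e-05) with 1.60 for tAT 3. Acaca, the cytosolic carboxylase, was higher by 1.48 (SE 0.26, adjusted p = 0.0012), with 1.26 for tAT 3. Fasn and Acly, which act beside it, did not pass, with 0.02 (SE 0.25, adjusted p = 0.95) and 0.21 (SE 0.21, adjusted p = 0.42), and 0.70 and 0.28 for tAT 3. G6pdx and Pgd, which supply NADPH, were lower in tAT, with differences of -1.24 (SE 0.11, adjusted p = 4.4e-05) and -1.08 (SE 0.10, adjusted p = 4.4e-05), with -1.39 and -0.95 for tAT 3. The desaturase Scd2 was the other lower one, with a difference of -1.13 (SE 0.26, adjusted p = 0.0057) and -1.63 for tAT 3. Of 19 cholesterol synthesis genes 8 were lower and 1 higher, beside 34.6% and 17.0% of all genes, with a median of -0.30. With tAT 3 as the only thigh library 3 cholesterol genes were lower and none higher, and the higher call of Idi1 was lost also without eWAT 1, eWAT 2, tAT 1 or tAT 4.

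Hox genes record position along the body. The posterior genes Hoxa9, Hoxa10, Hoxc9 and Hoxc10 and the factors Shox2 and Tbx15 were higher in thigh fat and in tAT 3 alone. Shox2 (mm10 chr3:66971727-66981771, minus strand), a limb homeobox gene, was 0.0603, 0.213, 0.155 and 0.0788 FPKM in eWAT 1 to 4 and 16.3, 15.5, 15.7 and 17.97 FPKM in tAT 1 to 4. The lowest thigh library, tAT 2, was above the highest eWAT library, and the difference was 3.95 (SE 0.10, adjusted p = 4.5e-08), with 3.89 for tAT 3. Hoxc10 (mm10 chr15:102966796-102971893, plus strand) was 0.590, 0.336, 0.631 and 0.477 FPKM in eWAT 1 to 4 and 17.5, 16.5, 14.8 and 17.8 FPKM in tAT 1 to 4. Every tAT value exceeded every eWAT value, tAT 4 being the highest, and the difference was 3.55 (SE 0.11, adjusted p = 1.6e-07), with 3.40 for tAT 3. Hoxa9 and Hoxa10, further posterior Hox genes, differed by 3.05 (SE 0.18, adjusted p = 6.3e-06) and 3.01 (SE 0.14, adjusted p = 1.6e-06), with 3.27 and 3.25 for tAT 3. Only 5 of the 16 genes of Hox groups 9 to 13 passed the filter, 2 of them under 1 FPKM in all eWAT libraries, and 4 were higher. Hoxc9 was the smallest of the 4, at 3.10, 2.66, 2.92 and 2.08 FPKM in eWAT 1 to 4 and 5.69, 4.35, 7.27 and 4.75 FPKM in tAT 1 to 4, a difference of 0.81 (SE 0.16, adjusted p = 0.0024) with 1.17 for tAT 3. Among groups 1 to 8, 3 of 18 tested genes were higher and 6 lower, shares close to those of all genes, and in the fit with tAT 3 as the only thigh library none was higher and 1 was lower, while 3 were lower without tAT 2 or without tAT 4. Hoxc8 was 39.2, 43.8, 48.8 and 46.4 FPKM in eWAT 1 to 4 and 31.1, 26.4, 34.7 and 30.2 FPKM in tAT 1 to 4. No thigh library reached the level of eWAT 1, the lowest eWAT library, and the difference was -0.53 (SE 0.11, adjusted p = 0.0033), with -0.35 for tAT 3, and Hoxa5 overlapped (0.04, adjusted p = 0.86, tAT 3 0.37).

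Of the 28 other position factors 12 were tested, 5 were higher and 4 lower, beside 17.0% and 34.6% of all genes. The share of lower factors was thus near that of all genes. Of the 12, 3 were under 1 FPKM in all thigh libraries and 2 in all eWAT libraries, so these passed the filter only through the other depot. Tbx15 (mm10 chr3:99240381-99354259, plus strand), a T-box gene of subcutaneous and brown fat and of fast muscle fibres, was 0.0832, 0.0105, 0 and 0.0874 FPKM in eWAT 1 to 4 and 21.01, 20.5, 5.92 and 16.3 FPKM in tAT 1 to 4. The muscle-poor tAT 3 held the lowest thigh level of Tbx15, still above every eWAT library, with a difference of 2.73 for tAT 3 and 3.89 (SE 0.33, adjusted p = 3.2e-05) over all. En1 and Tbx5 stayed under the filter. En1 was 0.122, 0.0873, 0.165 and 0.159 FPKM in eWAT and 0.638, 0.754, 0.604 and 0.360 FPKM in tAT 1 to 4, and the forelimb gene Tbx5 was 0, 0.0785, 0.0336 and 0 FPKM in eWAT and 0.959, 0.673, 1.21 and 0.668 FPKM in tAT. Tcf21 was 6.65, 4.62, 4.98 and 4.71 FPKM in eWAT 1 to 4 and listed at 0 in all thigh libraries. Wt1 was 2.42, 2.52, 3.08 and 2.94 FPKM in eWAT and was also listed at 0 in all thigh libraries. Gata6, a factor of mesodermal lining cells, was 3.47, 3.48, 4.62 and 2.48 FPKM in eWAT 1 to 4 and 0.978, 0.804, 0.963 and 0.885 FPKM in tAT 1 to 4. The thigh libraries, tAT 2 lowest among them, were all below eWAT, with a difference of -1.22 (SE 0.14, adjusted p = 0.00015) and -1.18 for tAT 3. The count of 5 higher position factors was 2 or 3 when any 1 library but eWAT 2 or tAT 2 was left out.

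**Figure D4:**
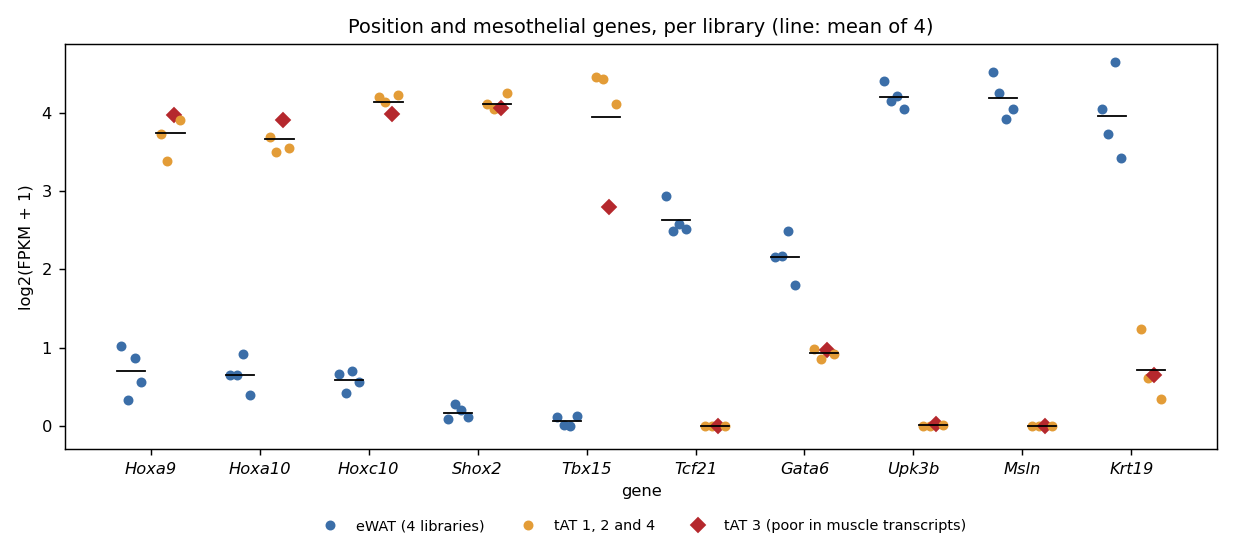
Levels of 10 position and mesothelial genes in the 8 libraries on log2(FPKM + 1); blue circles are eWAT, orange circles tAT 1, 2 and 4, the red diamond is tAT 3, and the line is the mean of 4 libraries. Hoxa9, Hoxa10, Hoxc10, Shox2 and Tbx15 are high in the thigh libraries, and Tcf21, Gata6, Upk3b, Msln and Krt19 in eWAT, with no overlap in any of the 10.

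Mesothelial genes were present in eWAT and near or at 0 in thigh fat. Upk3b (mm10 chr5:136038496-136046487, plus strand), a membrane protein of mesothelium, was 20.2, 16.7, 17.6 and 15.6 FPKM in eWAT 1 to 4 and 0, 0, 0.0129 and 0.0109 FPKM in tAT 1 to 4. Msln (mesothelin) was 21.9, 18.01, 14.1 and 15.5 FPKM in eWAT and listed at 0 in the 4 thigh libraries, and Upk1b and Muc16 were listed at 0 there too. Krt19 was 15.6, 12.2, 24 and 9.71 FPKM in eWAT 1 to 4 and 1.36, 0.527, 0.575 and 0.265 FPKM in tAT 1 to 4. Thigh levels were below eWAT in each library and highest in tAT 1, a difference of -3.25 (SE 0.27, adjusted p = 3.1e-05) with -3.30 for tAT 3. Of 16 listed genes 15 were tested, 12 of them under 1 FPKM in all thigh libraries, and 15 were lower in tAT and in tAT 3 alone. The list summed to 241 to 301 FPKM in eWAT and to 55.3, 64.4, 45.4 and 44.1 FPKM in tAT 1 to 4, of which Efemp1, a matrix protein of other cells too, was 41.2 to 61.05 FPKM. Krt8 and Krt18 were highest in eWAT 3, at 13.4 and 11.1 FPKM, the library with Crisp1.

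The gene with the largest fall that no list held was Slpi (mm10 chr2:164354070-164389095, minus strand), a secreted inhibitor of neutrophil proteases, at 135, 105, 123 and 98.5 FPKM in eWAT 1 to 4 and 0.432, 0.482, 0.626 and 0.390 FPKM in tAT 1 to 4. The highest thigh library, tAT 3, was below the lowest eWAT library, and the difference was -6.29 (SE 0.12, adjusted p = 8.5e-09), with -6.15 for tAT 3. Hspb7, a small heat shock protein, was 38.7, 51.3, 50.8 and 32.9 FPKM in eWAT 1 to 4 and 2.53, 3.73, 0.436 and 1.26 FPKM in tAT 1 to 4. Every tAT value was under every eWAT value, tAT 3 being the lowest, and the difference was -4.01 (SE 0.34, adjusted p = 4.1e-05), with -4.93 for tAT 3. Among rises outside the lists, Ntrk3, the receptor of neurotrophin 3, was 0.493, 0.403, 0.494 and 0.293 FPKM in eWAT 1 to 4 and 15.2, 13.5, 21.6 and 19.9 FPKM in tAT 1 to 4. Highest in tAT 3 and without overlap, the levels differed by 3.69 (SE 0.15, adjusted p = 9.1e-07), and tAT 3 by 3.99. H2-Q10, an MHC class I gene, was 4.47, 2.35, 4.13 and 6.21 FPKM in eWAT 1 to 4 and 68.4, 61.4, 153 and 104 FPKM in tAT 1 to 4. It was highest in tAT 3, did not overlap between depots and differed by 4.16 (SE 0.31, adjusted p = 2.4e-05), and by 4.92 in tAT 3, and reads could be shared with its close relatives. The antibody light chain gene Igkv14-126 was 182, 165, 8.49 and 27.1 FPKM in eWAT 1 to 4 and 0.273, 1.23, 0 and 0 FPKM in tAT 1 to 4. It differed by -5.36 (SE 1.02, adjusted p = 0.0048) and by -5.74 in tAT 3, which is lower by the tAT 3 rule, but limma did not call it with tAT 3 as the only thigh library.

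Macrophage genes were lower in thigh fat than in eWAT, with members of the lipid-laden type such as Trem2, Lgals3 and Mmp12 among the larger falls. Trem2 (mm10 chr17:48346401-48354147, plus strand), the lipid receptor that marks these cells in obese fat, was 104, 37.6, 29.3 and 86.3 FPKM in eWAT 1 to 4 and 3.33, 4.21, 1.13 and 1.63 FPKM in tAT 1 to 4. Lowest in tAT 3 and without overlap, the levels differed by -4.09 (SE 0.47, adjusted p = 0.00025), and tAT 3 by -4.75. Within eWAT, libraries 1 and 4 stood above 2 and 3. Lgals3 (galectin 3) was 572, 312, 272 and 833 FPKM in eWAT 1 to 4 and 22.6, 39.7, 24.5 and 23.1 FPKM in tAT 1 to 4. It was lowest in tAT 1, did not overlap between depots and differed by -4.02 (SE 0.36, adjusted p = 5.5e-05), and by -4.14 in tAT 3. Mmp12 (macrophage elastase) was 148, 55.6, 91.2 and 160.2 FPKM in eWAT 1 to 4 and 8.59, 12.96, 0.824 and 4.95 FPKM in tAT 1 to 4. No thigh library reached the level of eWAT 2, the lowest eWAT library, and the difference was -4.10 (SE 0.67, adjusted p = 0.0020), with -5.86 for tAT 3. Gpnmb differed by -3.65 (SE 0.52, adjusted p = 0.00085) and by -4.48 in tAT 3. Of the 16 genes of lipid-associated macrophages 14 were lower, with a median of -1.88, and the exceptions Plin2 and Acp5 had differences of -0.40 and -0.43, and -0.18 and 0.01 in tAT 3. General macrophage genes were lower in 19 of 20, with a median of -2.09, and tAT 3 was called lower in 18. Cd68 was 219, 116, 83.5 and 171 FPKM in eWAT 1 to 4 and 17.3, 23.1, 13.9 and 9.74 FPKM in tAT 1 to 4. The thigh libraries, tAT 4 lowest among them, were all below eWAT, with a difference of -3.09 (SE 0.33, adjusted p = 0.00012) and -3.22 for tAT 3. The list summed to 1773 to 3463 FPKM in eWAT and 496, 592, 376 and 332 FPKM in tAT 1 to 4. Mertk, a receptor for the uptake of dead cells, overlapped (-0.31, adjusted p = 0.10, tAT 3 -0.55).

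Most chemokine, MHC class II and other immune genes were lower too. Of 22 chemokine and inflammation genes 14 were tested and 12 were lower. Ccl8 was 65.5, 77.2, 24.2 and 57.5 FPKM in eWAT 1 to 4 and 1.99, 2.84, 1.88 and 1.70 FPKM in tAT 1 to 4. Thigh levels were below eWAT in each library and highest in tAT 2, a difference of -4.10 (SE 0.32, adjusted p = 2.5e-05) with -4.19 for tAT 3. Ccl2, which draws monocytes, differed by -3.28 (SE 0.37, adjusted p = 0.00017) and by -3.50 in tAT 3. Cxcl14 went the other way, at 4.44, 2.92, 2.47 and 3.24 FPKM in eWAT 1 to 4 and 48.9, 38.3, 41.1 and 34.9 FPKM in tAT 1 to 4. No eWAT library reached the level of tAT 4, the lowest thigh library, and the difference was 3.30 (SE 0.16, adjusted p = 1.7e-06), with 3.32 for tAT 3. All 9 tested MHC class II genes were lower, with a median of -1.87. Cd74, the invariant chain, was 1507, 1156, 699 and 1135 FPKM in eWAT 1 to 4 and 317, 334, 302 and 232 FPKM in tAT 1 to 4. The highest thigh library, tAT 2, was below the lowest eWAT library, and the difference was -1.88 (SE 0.23, adjusted p = 0.00016), with -1.84 for tAT 3. H2-DMb1, which loads peptides, differed by -2.44 (SE 0.27, adjusted p = 0.00012) and by -2.46 in tAT 3. Of 20 lymphocyte genes 12 were tested and 9 were lower, with a median of -0.94. Ighm (IgM heavy chain) was 1030.5, 1005, 842 and 934 FPKM in eWAT 1 to 4 and 159.8, 239, 111 and 196 FPKM in tAT 1 to 4. Every tAT value was under every eWAT value, tAT 3 being the lowest, and the difference was -2.48 (SE 0.21, adjusted p = 3.5e-05), with -3.08 for tAT 3. The count of 9 lymphocyte genes was 5 without eWAT 1, eWAT 4, tAT 1, tAT 2 or tAT 4, 4 with quantile normalization, and 2 with tAT 3 as the only thigh library. Among neutrophil and mast cell genes 6 of 8 were lower and 1, the receptor gene Kit, was higher, with a difference of 0.54 (SE 0.17, adjusted p = 0.026) and 0.18 for tAT 3. S100a8 was 58.4, 43.2, 18.1 and 40.5 FPKM in eWAT 1 to 4 and 2.61, 2.93, 3.15 and 1.46 FPKM in tAT 1 to 4. Lowest in tAT 4 and without overlap, the levels differed by -3.45 (SE 0.32, adjusted p = 5.8e-05), and tAT 3 by -3.19. The mast cell protease gene Mcpt4 differed by -1.28 (SE 0.16, adjusted p = 0.00019) and by -1.55 in tAT 3. Haemoglobin transcripts, whose copies share reads, were lower in tAT in all 4 genes, and Hba-a1 was 766 to 1707 FPKM in eWAT and 362 to 649 FPKM in tAT (568 FPKM in tAT 3), but 1 of the 6 blood genes stayed lower with tAT 3 as the only thigh library.

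Lysosomal genes, which macrophages express strongly but every cell uses, were lower in 24 of 26 with a median of -0.88. tAT 3 was below the eWAT mean for each and called lower in 9. Ctss and Ctsh, cathepsins of immune cells, differed by -3.13 (SE 0.35, adjusted p = 0.00015) and -2.18 (SE 0.19, adjusted p = 4.2e-05), with -3.60 and -2.18 for tAT 3. Lgmn (legumain) was 138, 106, 75.4 and 126 FPKM in eWAT 1 to 4 and 25.3, 26.8, 21.9 and 20.1 FPKM in tAT 1 to 4. It was lowest in tAT 4, did not overlap between depots and differed by -2.17 (SE 0.18, adjusted p = 3.3e-05), and by -2.26 in tAT 3. Members of general use moved less, as Lamp1, a membrane protein of lysosomes, at 391, 361, 324 and 421 FPKM in eWAT 1 to 4 and 235, 239, 243 and 227 FPKM in tAT 1 to 4. No thigh library reached the level of eWAT 3, the lowest eWAT library, and the difference was -0.66 (SE 0.11, adjusted p = 0.00087), with -0.61 for tAT 3. Ctsd (cathepsin D) differed by -1.52 (SE 0.16, adjusted p = 8.2e-05) and by -1.44, and Gaa, the acid glucosidase that clears glycogen, by -0.44 (SE 0.14, adjusted p = 0.023) and by -0.79. With median-of-ratios scaling 19 lysosomal genes were lower and 1 was higher. Macrophage genes fell along with them, and their part in the lysosomal differences was not tested.

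Most matrix genes were lower in thigh fat, among them the Col6a1 and Col6a2 chains of type VI collagen. Of 15 collagen genes 12 were lower and none higher, with a median of -0.92 and -1.24 for tAT 3. Col6a1 was 250.1, 223, 210.0 and 226 FPKM in eWAT 1 to 4 and 63.6, 69.9, 43.6 and 39 FPKM in tAT 1 to 4. The thigh libraries, tAT 4 lowest among them, were all below eWAT, with a difference of -2.09 (SE 0.18, adjusted p = 3.8e-05) and -2.35 for tAT 3. Col6a2 differed by -2.16 (SE 0.19, adjusted p = 4.0e-05) and by -2.35, while Col6a3, whose chain joins both in 1 molecule, did not pass (-0.06, adjusted p = 0.71, tAT 3 -0.16, 62.8, 68.2, 54.6 and 56.6 FPKM in eWAT 1 to 4 and 67.01, 65.3, 53.9 and 47.03 FPKM in tAT 1 to 4). Col14a1 differed by -2.25 (SE 0.29, adjusted p = 0.00022) and by -2.70 in tAT 3. Type I collagen differed by less, with Col1a1 at 99.2, 89.5, 59.2 and 77.5 FPKM in eWAT 1 to 4 and 53.4, 62.8, 33.6 and 33.3 FPKM in tAT 1 to 4. Values of the depots overlapped, and the difference was -0.85 (SE 0.23, adjusted p = 0.014), with -1.23 for tAT 3, and tAT 2 overlapped eWAT 3. With quantile normalization 8 collagens were lower. Of 20 other matrix genes 13 were lower. Fn1 (fibronectin) was 196, 158, 149 and 157 FPKM in eWAT 1 to 4 and 44.3, 66.6, 17.05 and 21.7 FPKM in tAT 1 to 4. Thigh levels were below eWAT in each library and highest in tAT 2, a difference of -2.30 (SE 0.39, adjusted p = 0.0014) with -3.19 for tAT 3. Fmod (fibromodulin) differed by -2.95 (SE 0.15, adjusted p = 2.6e-06) and by -2.81 in tAT 3, and Thbs1 by -2.16 (SE 0.32, adjusted p = 0.00055) and by -3.08. Of 15 tested proteases and inhibitors 9 were lower and 1 was higher. Timp1, an inhibitor of matrix proteases, was 19.5, 11.55, 6.08 and 16.9 FPKM in eWAT 1 to 4 and 0.741, 0.764, 0.761 and 0.642 FPKM in tAT 1 to 4. The highest thigh library, tAT 2, was below the lowest eWAT library, and the difference was -2.96 (SE 0.29, adjusted p = 6.0e-05), with -2.93 for tAT 3. Timp3 went the other way, by 1.02 (SE 0.22, adjusted p = 0.0037), with 0.53 for tAT 3, and its call was lost with tAT 3 alone.

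Complement and acute-phase genes were lower in 14 of the 17 tested, with a median of -1.63 and -1.94 for tAT 3. Hp (haptoglobin) was 5334, 3778, 2001 and 4255 FPKM in eWAT 1 to 4 and 583, 735, 661 and 618 FPKM in tAT 1 to 4. Every tAT value was under every eWAT value, tAT 1 being the lowest, and the difference was -2.48 (SE 0.27, adjusted p = 9.8e-05), with -2.45 for tAT 3. Saa3 was 119.8, 49.8, 18.5 and 81.5 FPKM in eWAT 1 to 4 and 2.99, 5.60, 0.271 and 1.25 FPKM in tAT 1 to 4. Lowest in tAT 3 and without overlap, the levels differed by -4.25 (SE 0.71, adjusted p = 0.0022), and tAT 3 by -5.46. Lcn2 differed by -2.77 (SE 0.25, adjusted p = 4.7e-05) and by -2.78 in tAT 3, and Orm1 by -1.81 (SE 0.16, adjusted p = 4.6e-05) and by -1.44. Cfd (adipsin), a complement protease made by adipocytes, was 3165, 3566, 3959 and 2480.3 FPKM in eWAT 1 to 4 and 5069, 3055, 7683 and 5241 FPKM in tAT 1 to 4 and did not pass (0.62, adjusted p = 0.079, tAT 3 1.24), and tAT 3 was the highest of all. Of 14 tested angiotensin, retinoid and glucocorticoid genes 8 were lower and 3 higher, none of them higher with tAT 3 as the only thigh library. Agt (angiotensinogen, mm10 chr8:124556534-124569706, minus strand), the source of angiotensin, was 116, 129, 117 and 73.5 FPKM in eWAT 1 to 4 and 3.05, 2.35, 1.46 and 2.63 FPKM in tAT 1 to 4. No library overlapped, with a difference of -5.02 (SE 0.20, adjusted p = 8.2e-07) and -5.45 for tAT 3. Aldh1a2 and Aldh1a3, which make retinoic acid, were lower as well. They differed by -2.26 (SE 0.23, adjusted p = 7.4e-05) and -2.11 (SE 0.23, adjusted p = 9.7e-05), with -2.88 and -2.39 for tAT 3, and Aldh1a2 is also a mesothelial gene. Hsd11b1, which makes active glucocorticoid, differed by -0.77 (SE 0.12, adjusted p = 0.00057) and by -0.61 in tAT 3.

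Vessel, nerve and progenitor genes differed member by member. Of 15 endothelial genes 5 were higher and none lower, with Kdr (the main VEGF receptor) at 6.71, 13.3, 9.31 and 5.36 FPKM in eWAT 1 to 4 and 24.8, 21.1, 19.9 and 22.2 FPKM in tAT 1 to 4. The thigh libraries, led by tAT 1, were all above eWAT, with a difference of 1.31 (SE 0.22, adjusted p = 0.0011) and 1.18 for tAT 3. Without eWAT 2, which held the highest level of eWAT for nearly every gene of the list, 10 were higher, and with tAT 3 as the only thigh library none was (limma). Of 9 tested pericyte and smooth muscle genes 5 were higher and 1 lower. Their median of 1.06 over all was 0.42 for tAT 3, which was called higher in 2. The pericyte genes Rgs5 and Cspg4 differed by 1.65 (SE 0.24, adjusted p = 0.00048) and 1.70 (SE 0.10, adjusted p = 5.1e-06), with 1.45 and 1.80 for tAT 3, whereas Acta2, of smooth muscle, differed by -1.34 (SE 0.13, adjusted p = 6.1e-05) and -1.48. Des in the same list is a muscle gene, at 141 to 237 FPKM in tAT 1, 2 and 4 and 20.4 FPKM in tAT 3. Lymphatic genes were lower in 4 of the 5 tested, and Ccl21a, which lymphatic vessels and lymph nodes make, was 64.4, 48.9, 43.04 and 29.05 FPKM in eWAT 1 to 4 and 1.36, 1.32, 1.91 and 0.551 FPKM in tAT 1 to 4. It was lowest in tAT 4, did not overlap between depots and differed by -4.35 (SE 0.25, adjusted p = 5.1e-06), and by -3.97 in tAT 3. Schwann cell genes were higher in 3 of 5 and lower in 1, and 2 of the 5 were under 1 FPKM in all eWAT libraries and passed the filter only through tAT. S100b was 1.82, 2.90, 3.07 and 1.66 FPKM in eWAT 1 to 4 and 8.29, 12.2, 29.1 and 17.8 FPKM in tAT 1 to 4. Thigh levels were above eWAT in each library and lowest in tAT 1, a difference of 2.30 (SE 0.33, adjusted p = 0.00045) with 3.19 for tAT 3, and it is also made by adipocytes. Cdh19 differed by 1.32 (SE 0.11, adjusted p = 3.5e-05) and by 1.32, and Pmp22, which fibroblasts share, differed by -0.68 (SE 0.09, adjusted p = 0.00033) and by -0.51. Among 13 tested progenitor genes 7 were lower and 1, Ebf2, higher, beside 34.6% and 17.0% of all genes. Dpp4, of early progenitors, differed by -1.38 (SE 0.21, adjusted p = 0.00060) and by -2.02, and Pdgfra overlapped (-0.07, adjusted p = 0.76, tAT 3 -0.48). Proliferation genes were low, and 12 of the 14 tested were lower in tAT. Of the 14, 3 were under 1 FPKM in all thigh libraries and passed the filter only through eWAT. For example, Top2a was 7.49, 5.08, 4.54 and 6.30 FPKM in eWAT 1 to 4 and 1.25, 2.16, 1.25 and 1.18 FPKM in tAT 1 to 4. No thigh library reached the level of eWAT 3, the lowest eWAT library, and the difference was -1.47 (SE 0.17, adjusted p = 0.00015), with -1.59 for tAT 3.

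Clock genes were higher in thigh fat in 14 of 18 tested and lower in 1, with a median of 1.19 and 1.10 for tAT 3, which was called higher in 11. Hlf and Tef, output factors of the clock, differed by 2.17 (SE 0.15, adjusted p = 1.3e-05) and 1.75 (SE 0.23, adjusted p = 0.00028), with 1.89 and 1.34 for tAT 3. Per2, a repressor, was 2.82, 3.33, 3.35 and 1.79 FPKM in eWAT 1 to 4 and 18.1, 18.2, 6.91 and 13.3 FPKM in tAT 1 to 4. The lowest thigh library, tAT 3, was above the highest eWAT library, and the difference was 1.92 (SE 0.28, adjusted p = 0.00048), with 1.07 for tAT 3. Per3 differed by 1.75 (SE 0.18, adjusted p = 7.9e-05) and by 1.64, and Ciart by 1.46 (SE 0.18, adjusted p = 0.00017) and by 1.13. The member with the opposite sign was Arntl (Bmal1), the activator that those repressors hold back, at 2.56, 3.04, 2.84 and 3.02 FPKM in eWAT 1 to 4 and 1.36, 1.30, 0.939 and 0.752 FPKM in tAT 1 to 4. The thigh libraries, tAT 4 lowest among them, were all below eWAT, with a difference of -0.90 (SE 0.12, adjusted p = 0.00035) and -0.99 for tAT 3. The hour of collection is not given in the labels, so it and the depot cannot be told apart. Immediate early genes, which respond within minutes to handling, were higher in 1 and lower in 6 of 14, beside 17.0% and 34.6% of all genes. In tAT 3 Egr1 was 42.5 FPKM against 2.66 to 6.53 FPKM in the other thigh libraries and 6.22 to 9.24 FPKM in eWAT. The median of the immediate early genes was -0.45 over all and 0.14 for tAT 3. Nr4a1, a nuclear receptor of that kind, was the higher one, at 3.53, 3.55, 3.31 and 2.59 FPKM in eWAT 1 to 4 and 17.8, 20.1, 9.74 and 11.2 FPKM in tAT 1 to 4. Every tAT value exceeded every eWAT value, tAT 2 being the highest, and the difference was 1.84 (SE 0.21, adjusted p = 0.00014), with 1.34 for tAT 3.

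Promoters of the clock and lysosomal genes are printed here because both groups are known for an E-box, the hexamer CACGTG, which clock activators and the lysosomal regulator TFEB bind. The 250 bases before each gene start came from RefSeq (GRCm38.p6) and were searched on both strands for 10 motifs in 7 lists. The motifs were CACGTG, its extensions TCACGTG and TCACGTGA, the output factor motif TTATGTAA, the nuclear receptor motifs AGGTCA and AAGGTCA, a pair of AGGTCA with 1 base between, the CREB motif TGACGTCA, GGAA and GAAA with 2 bases between, and AGAACA and TGTTCT with 3 bases between. Matches of an extension are also matches of the motif inside it. Over all promoters the shares in this order were 6.02, 3.13, 0.785, 0.819, 14.0, 4.08, 0.0335, 1.55, 2.30 and 0.00913%. CACGTG and the promoters shown were chosen after these shares and the values of the lists were seen. CACGTG stood in 6.02% of all 32851 promoters and 8.57% of the 9462 that belong to tested genes. It stood in 5 of 15 clock promoters, those of Bhlhe41, Ciart, Cry1, Per1 and Tef, and in 6 of 19 lysosomal promoters, those of Atp6v1a, Ctsd, Ctsl, Gaa, Gla and Lamp1. The same hexamer stood in 1 of 11 thermogenic promoters (Gk), and in 0 of 13 oxidative, 0 of 16 citric acid cycle, 0 of 14 macrophage and 0 of 6 MHC class II promoters. AGGTCA stood in 10.5% of the promoters of tested genes and more often in each of the 7 lists, in 4 of 11 thermogenic, 2 of 6 MHC class II, 5 of 19 lysosomal, 3 of 13 oxidative, 3 of 14 macrophage, 3 of 15 clock and 3 of 16 citric acid cycle promoters. A match is a description of the letters, not evidence of a binding site, and of the lists in which it stood most often the clock genes were mostly higher in tAT and the lysosomal genes mostly lower. Each sequence runs 5′ to 3′ on the strand of its gene and ends at the base before the start, with CACGTG in capitals. Per1 (chr11:69098699-69098948, plus strand), Ciart (chr3:95882229-95882478, minus), Tef (chr15:81802423-81802672, plus), Ctsd (chr7:142387828-142388077, minus), Lamp1 (chr8:13158911-13159160, plus) and Gaa (chr11:119267713-119267962, plus) held 1, 3, 1, 2, 4 and 1 matches.
Per1: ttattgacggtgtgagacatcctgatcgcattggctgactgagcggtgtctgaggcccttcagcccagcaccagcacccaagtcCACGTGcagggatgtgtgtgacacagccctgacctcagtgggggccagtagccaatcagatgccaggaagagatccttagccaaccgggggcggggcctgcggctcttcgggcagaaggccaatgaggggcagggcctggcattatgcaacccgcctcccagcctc
Ciart: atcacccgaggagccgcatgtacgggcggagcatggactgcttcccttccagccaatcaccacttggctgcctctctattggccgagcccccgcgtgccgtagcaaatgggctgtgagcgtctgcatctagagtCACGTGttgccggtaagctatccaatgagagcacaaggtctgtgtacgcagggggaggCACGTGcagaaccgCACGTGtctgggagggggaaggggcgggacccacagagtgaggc
Tef: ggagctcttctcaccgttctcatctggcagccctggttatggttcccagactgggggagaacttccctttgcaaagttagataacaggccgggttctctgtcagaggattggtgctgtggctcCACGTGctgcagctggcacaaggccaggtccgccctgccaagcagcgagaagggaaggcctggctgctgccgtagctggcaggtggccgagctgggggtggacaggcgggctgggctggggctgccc
Ctsd: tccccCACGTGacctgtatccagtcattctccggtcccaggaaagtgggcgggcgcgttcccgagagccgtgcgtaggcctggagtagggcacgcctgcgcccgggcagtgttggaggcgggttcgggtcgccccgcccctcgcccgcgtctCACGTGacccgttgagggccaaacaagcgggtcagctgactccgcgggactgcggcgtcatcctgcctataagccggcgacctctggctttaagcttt
Lamp1: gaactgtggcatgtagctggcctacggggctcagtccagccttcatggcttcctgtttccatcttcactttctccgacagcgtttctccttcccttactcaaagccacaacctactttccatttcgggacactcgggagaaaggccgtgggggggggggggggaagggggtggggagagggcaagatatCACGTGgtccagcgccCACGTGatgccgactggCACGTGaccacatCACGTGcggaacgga
Gaa: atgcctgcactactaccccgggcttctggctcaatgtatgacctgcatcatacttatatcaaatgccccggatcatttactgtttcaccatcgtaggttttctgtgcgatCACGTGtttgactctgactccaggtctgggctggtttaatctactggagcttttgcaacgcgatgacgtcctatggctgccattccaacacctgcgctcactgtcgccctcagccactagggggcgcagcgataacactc

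**Figure D5:**
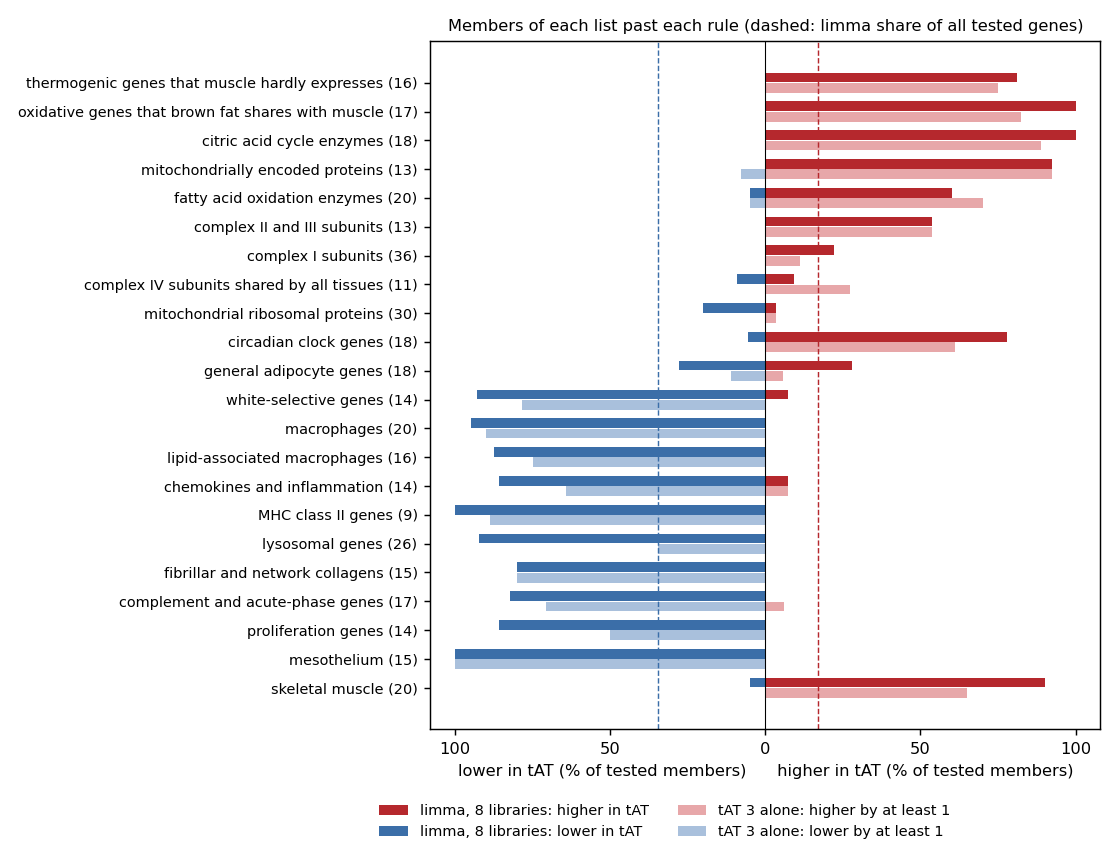
Share of tested members, in percent, called higher or lower in tAT for 22 gene lists. Calls are by limma over the 4 and 4 libraries and by the rule for tAT 3 alone. Dashed lines are the limma shares over all tested genes. No line is drawn for the tAT 3 rule, by which 4.01% of all genes were higher and 10.8% lower. The citric acid cycle list stands far above the 17.0% of all genes that were higher, and the macrophage list far above the 34.6% that were lower. The oxidative and MHC class II lists do too, but 4 of 17 oxidative genes passed the filter only through tAT and 1 of 9 MHC class II genes only through eWAT. Of the 15 mesothelial genes 12 passed the filter only through eWAT, and their share is not read against that of all genes.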

How the data were processed

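RNA was extracted with Trizol from frozen fat and made into TruSeq libraries, per the labels' protocols. The authors deposited 1 table of FPKM values for all libraries, made, per the submitters' processing notes, with mm10 and the programs Cufflinks 2.1.1, TopHat and TopHat2 2.0.9. Which gene models were used, and whether strand was used, is not stated in the labels. Depth is unknown from FPKM, so no counting interval is given, and genes that overlap or have near copies are uncertain. Of 794 list genes 3 had no match (Mvd, Cox4i1, Acta1) and were not analysed here. Coq8a is listed as Adck3.

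From the deposited FPKM, genes with at least 1 FPKM in 4 of the 8 libraries were tested on log2(FPKM + 1) with limma 3.58.1 (trended, robust empirical Bayes) in R 4.3.3, with Benjamini-Hochberg adjustment over 14225 genes and a threshold of 0.05. The fit was tested on simulated data with known answers.

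Genes were named by 4 rules. These took the 10 largest rises and falls among calls that did not overlap between depots and reached 5 FPKM, the 12 largest in each direction by the smaller of the tAT 3 difference and the mean of the others, up to 3 rises and 3 falls of each list by that measure or else its 2 highest members, and a fixed set of depot genes. Predicted genes and small RNAs were left out. Other genes named beside them were chosen after their values were seen. The lists and members were chosen with earlier results of these data known. Promoters are from RefSeq (GRCm38.p6) and gene spans from GENCODE vM21. Alternatives changed the pseudocount, the filter, the scaling, the moderation, the libraries fitted and the replicate block, and left out each library in turn.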

Additional observations from a re-analysis of the deposited data

Results flagged for a closer look

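Single libraries stood apart for some genes when the gap of the extreme library to its neighbour was set against the range of its group of 4. Of 376 groups 26 were marked by this comparison, 15 of them through tAT 3, and chance alone marks about 1 in 20 groups.

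In tAT 3 muscle genes were far below the other thigh libraries. Tnnt3 was 26.9 FPKM there against 3014 to 4675 FPKM, Ckm was 15.2 FPKM against 2031 to 3218 FPKM and Mylpf was 28.3 FPKM against 2279.5 to 3716 FPKM. Atp2a1 stood at 8.57 FPKM against 1767 to 3059 FPKM, Myh4 at 7.50 FPKM against 1701 to 2862 FPKM and Tnnc2 at 20.9 FPKM against 1859.6 to 2887 FPKM. For Tnni2 the level was 16.7 FPKM against 1693 to 2666 FPKM, for Eno3 14.9 FPKM against 688 to 1119.8 FPKM and for Pgam2 2.60 FPKM against 245 to 373 FPKM. Myoz1 was 2.30 FPKM against 215 to 331 FPKM and Tcap 2.33 FPKM against 228 to 393 FPKM.

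Some genes of mitochondrial proteins stood above the other thigh libraries in tAT 3, with Cox7a2l at 145 FPKM against 92.1 to 97.7 FPKM, Mrpl17 at 172 FPKM against 135 to 140.4 FPKM and Mrpl20 at 109.8 FPKM against 77.7 to 80.5 FPKM. Insr, the insulin receptor, was lower there, at 13.8 FPKM against 18.1 to 18.6 FPKM.

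Among the other thigh libraries tAT 2 was highest for Lgals3 at 39.7 FPKM, for Wfdc21 at 44.4 FPKM and for Top2a at 2.16 FPKM, where the others reached 24.5, 25.7 and 1.25 FPKM. tAT 1 was lowest for mt-Nd5 at 3458 FPKM, the others at 3934 to 4007 FPKM.

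Within epididymal fat eWAT 3 was highest for Ckm at 2.78 FPKM, Tnnc2 at 9.60 FPKM, Rbp4 at 943 FPKM and Ppargc1a at 0.901 FPKM, where the other libraries reached 0.788, 2.62, 760 and 0.443 FPKM. It was lowest for Aldh1a3 at 8.19 FPKM, the others starting at 11.8 FPKM. Pdpn was highest in eWAT 1 at 18.2 FPKM and Cma1 lowest in eWAT 4 at 4.23 FPKM.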

How the results depend on the processing

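The main counts were 2412 genes higher and 4927 lower. With tAT 3 as the only thigh library, assumed to vary like the other group, 874 and 2452 were called, of which 688 and 2273 were among the main calls. A filter of 5 FPKM gave 1587 and 3817, median-of-ratios scaling 3586 and 3837, quantile normalization 3564 and 3751, no filter 2875 and 5681, and a fit of all 16 libraries 2996 and 5322. Leaving out each library in turn gave 1764 to 3015 higher and 4240 to 5268 lower genes, both highest without tAT 3. The replicate block gave 1800 and 4246. Same-numbered libraries did not deviate together from their depot means, with correlations of -0.0936, -0.0563, -0.216 and 0.0181. Differences between single libraries, such as in muscle transcripts, also enter these values. They cannot tell whether same-numbered libraries came from the same mouse, which the labels do not state. Of the 190 named genes 187 were called. Of these, 21 lost the call in at least 1 alternative other than tAT 3 alone, 11 of them with the block. No called gene changed direction in an alternative, but the uncalled Adrb3 did, from -0.10 over all to 0.24 for tAT 3. Because 2 of the naming rules ask for the same sign in tAT 3 and the other thigh libraries, the lack of reversals is partly built in. Pnpla2 lost its call with the block, without any 1 eWAT library and without tAT 4, and Col1a1, Npr3 and Scd2 with quantile normalization only. No bone gene was left at a filter of 5 FPKM. The depth behind each FPKM is unknown, and 146 values of 0 in 80 of the 7049 genes with a median of at least 10 FPKM limit single values.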

Other observations

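Cell types that could have been carried along were checked by their defining genes. Of 12 genes of epidermis and hair 3 were tested, and Krt5 was 0 to 0.335 FPKM in eWAT and listed at 0 in the 4 thigh libraries, while Krt17 and Dsg3 were listed at 0 in all 8. Of the tested members Sbsn was 79.1, 66.2, 62.5 and 60.2 FPKM in eWAT 1 to 4 and 10.1, 9.004, 12.9 and 8.32 FPKM in tAT 1 to 4, a difference of -2.62 (SE 0.14, adjusted p = 3.9e-06) with -2.28 for tAT 3, and Krtdap was 7.34, 3.42, 2.77 and 3.93 FPKM in eWAT 1 to 4 and 7.57, 8.98, 6.65 and 6.55 FPKM in tAT 1 to 4, a difference of 0.71 (SE 0.23, adjusted p = 0.026) with 0.58 for tAT 3. Of 12 genes of bone, cartilage and tendon 1 was tested and none was called. The classical brown fat gene Zic1 was 0, 0.00650, 0.0127 and 0 FPKM in eWAT 1 to 4 and listed at 0 in tAT 1 to 4.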
